A study of Homo sapiens with 12 samples.

Results

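The transcriptional state of MDA-MB-468 cells after 24 h in docetaxel was described against vehicle. The comparison took the 3 libraries that the labels give to 24 h of docetaxel and the 3 given to DMSO, which are 6 of the 12 libraries in the series. Its members were the genes that passed a filter on low counts, 17780 of the 58735 entries in the count files. Genes of the histone clusters and the NF-kB cytokines were tested with the rest but are not described here. The 3 libraries of 8 h of docetaxel were set beside the 24 h libraries where the time of a change mattered. All groups were wild-type MDA-MB-468 by label. Docetaxel was given at 10 nM to cells in 10 cm plates, 24 h after seeding. The labels do not give the hours, plate or serum of the DMSO libraries, and the protocol mentions DMSO only for cells of the other treatment arm, which were kept in tazemetostat or DMSO for 5 days and dosed in medium with 2% FBS. Docetaxel therefore cannot be told apart from any difference in culture between these groups. Whether libraries A, B and C of a group came from separate cultures is not stated, and a p-value here weighs only library-to-library spread, part of which can be technical.

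Docetaxel is a taxane. It binds beta-tubulin inside the microtubule wall, stabilises the polymer and blunts the dynamics that a spindle needs to attach and align chromosomes. Cells then stall in mitosis under the spindle assembly checkpoint, and they die there, or slip out without proper division into a G1-like state with abnormal nuclei. MDA-MB-468 is a basal-like, triple-negative breast cancer line with amplified EGFR and loss of the tumour suppressors RB1 and SMAD4.

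The libraries held high EGFR and almost no SMAD4. EGFR had 3619.5, 4112 and 3759 CPM (depth-scaled read counts, with TMM factors) in DMSO libraries A, B and C and 2783, 2627 and 2522 CPM at 24 h. SMAD4 had 0.253, 0.285 and 0.148 CPM in DMSO and 0.421, 0.431 and 0.409 CPM at 24 h, and RB1 had 5.11, 4.98 and 4.02 CPM and 3.34, 3.82 and 3.34 CPM. The 10 epithelial markers of the line summed to between 13960 and 14644 CPM in DMSO and between 13867 and 14159 CPM at 24 h. The 10 fibroblast markers summed to between 24.5 and 27.0 CPM in DMSO and between 19.2 and 22.5 CPM at 24 h, with 4 and 3 of them at 0. The 10 immune markers summed to between 54.5 and 57.1 CPM and between 34.7 and 36.6 CPM, nearly all of it CD14, and the 9 endothelial markers to between 32.1 and 35.7 CPM and between 24.7 and 25.8 CPM. Total counts of the 12 libraries ran from 29820617 to 45807059. Genes of the mitochondrial genome took 4.001% to 4.48% of the counts in DMSO and 5.00% to 7.53% at 24 h, with library B the lowest of the 24 h group.

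After 24 h of docetaxel 3583 genes were higher than in DMSO, which is 20.2% of the genes tested, and 4044 were lower, which is 22.7%. Among the 13953 protein-coding genes tested, 3055 were higher (21.9%) and 3777 lower (27.1%). Every count of a gene group below has to be read against such shares, and groups of protein-coding genes against the latter. A gene was called where edgeR's quasi-likelihood test gave a Benjamini-Hochberg adjusted p under 0.05. Most calls were small, and 397 genes (2.23%) were at least 2-fold higher and 153 (0.861%) at least 2-fold lower. The libraries of the 2 groups did not overlap in 9440 genes (53.1%). The median log2 fold change of all genes was 0.01. In bulk RNA a smaller share of cells that express a gene and less of its mRNA per cell cannot be told apart, and this holds for each result. Log2 fold changes are given as 24 h minus DMSO with ± an approximate standard error. On each of 23 chromosomes, between 17.6% and 27.6% of the protein-coding genes were higher and between 20.6% and 33.9% lower. By direct test of 24 h against 8 h, 2947 genes were higher at 24 h (16.6%) and 3261 lower (18.3%). That split rested on the scaling. With library totals used alone, the median of all genes moved from 0.01 to 0.14, and 5392 genes were higher and 1655 lower.

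The length of the transcript moved with the response. Protein-coding genes were put in 5 groups of like size by the longest annotated transcript of each gene. In the group with the shortest (207 to 2131 bases) 43.7% were higher and 6.46% lower at 24 h than in DMSO, with a median of 0.20. In the group with the longest (at least 5910 bases) 8.19% were higher and 47.8% lower, with a median of -0.19. The medians of the groups between ran down from 0.05 to -0.03 and -0.11. The same contrast of 24 h with 8 h ran from -0.04 in the shortest group to 0.03 in the longest. The contrast of 8 h with DMSO ran from 0.23 to -0.22. Taken library by library, the median deviation of the shortest group minus that of the longest was between -0.37 and -0.26 in the 3 DMSO libraries, between 0.03 and 0.19 at 24 h, between 0.04 and 0.37 at 8 h and between -0.11 and 0.14 under tazemetostat with ipatasertib. The DMSO libraries thus lay below all 9 treated ones. What part library preparation, RNA quality or the cells had in this was not tested. A second fit took each library's trend with transcript length out of the counts (the length offset, added after these data were seen). It gave 3697 genes higher and 3658 lower and medians from 0.04 to 0.01 over the 5 groups. The 2784 genes with the widest gene span still had 15.3% higher and 27.0% lower.

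**Figure D1:**
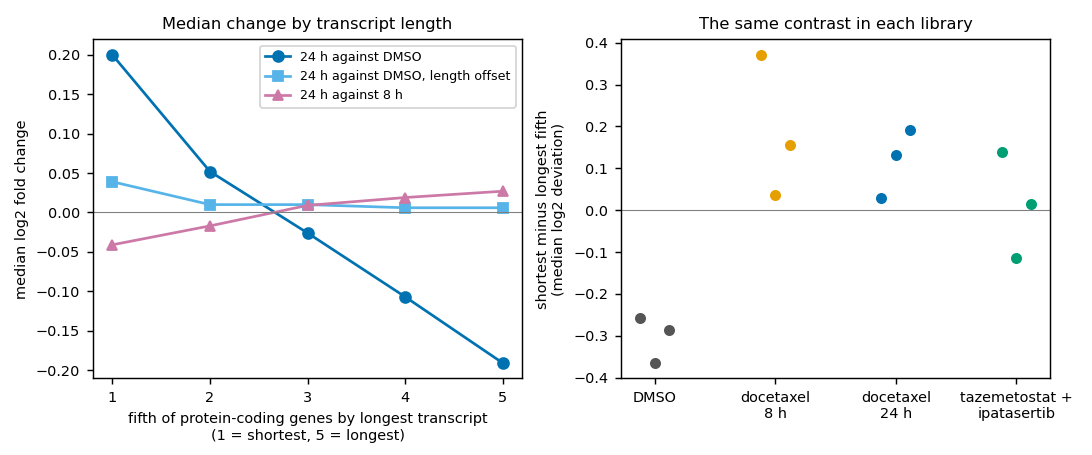
Left, median log2 fold change of protein-coding genes in 5 equal groups by the length of the longest transcript, for 24 h against DMSO with TMM factors (circles) or with the length offset (squares) and for 24 h against 8 h (triangles). Right, the shortest minus the longest group in each library (each point 1 library, median log2 deviation from the mean of all 12). The median of 24 h against DMSO falls from 0.20 to -0.19, and the 3 DMSO points lie below the other 9.

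Stress-inducible genes were among the largest rises. ATF3 (chromosome 1, 212565334 to 212620777 on GRCh38), a bZIP factor induced by many kinds of stress, had 17.8, 16.7 and 18.9 CPM in DMSO, 15.8, 13.2 and 14.7 CPM at 8 h and 45.4, 45.5 and 49.96 CPM at 24 h. The 24 h libraries all stood well above the other 6, and the 8 h libraries were slightly below DMSO. The log2 fold change was 1.40 ± 0.08 against DMSO (adjusted p = 1.15e-11) and 1.69 ± 0.08 against 8 h (adjusted p = 3.12e-13). GADD45A (chromosome 1, 67685061 to 67688338), which acts in growth arrest and DNA repair, had the smallest p among rises of protein-coding genes at 5 CPM or more, outside histones and cytokines. It went from 74.7, 73.5 and 72.4 CPM through 102, 98.3 and 104 CPM at 8 h to 155, 153 and 169.9 CPM, so that none of the 3 groups overlapped (1.12 ± 0.05, adjusted p = 4.38e-13). Its relative GADD45G had 4.63, 4.09 and 4.82 CPM in DMSO and 10.8, 10.0 and 10.6 CPM at 24 h (1.21 ± 0.12), and did not pass at 8 h (0.01, adjusted p = 0.951).

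Of 29 AP-1 and immediate early genes, 17 rose and 3 fell, with a median of 0.25, and the length offset gave the same counts. AP-1 is the dimer of JUN and FOS family proteins that many growth and stress signals feed into. JUN rose from 198, 189 and 179 to 262, 269 and 267 CPM (0.50 ± 0.06) after standing at 143, 152 and 139.8 CPM at 8 h. FOS went the other way: it had 260.4, 219 and 264 CPM in DMSO, 150.2, 141 and 97.4 CPM at 8 h and 131, 131 and 142 CPM at 24 h (-0.88 ± 0.10, adjusted p = 6.15e-07), and every treated library was below every DMSO library. FOSL1, a FOS relative, rose from 8.73, 8.41 and 8.92 to 16.5, 16.5 and 20.1 CPM (1.03 ± 0.08) and was already at 21.0, 18.7 and 18.5 CPM at 8 h. MAFF, a small MAF factor, rose by 0.91 ± 0.06, and KLF4, a zinc-finger factor of epithelial differentiation and arrest, by 0.94 ± 0.09. The orphan nuclear receptor NR4A2, an immediate early gene outside that list, fell at 8 h to 4.33, 5.31 and 4.39 CPM from 8.18, 7.33 and 6.47 CPM and stood at 16.1, 13.6 and 16.7 CPM at 24 h (1.08 ± 0.12 against DMSO).

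Genes that restrain or feed MAP kinase signalling changed both ways, as protein-coding genes at large did. Of 31 genes 9 were higher and 9 lower, and 13 and 8 with the length offset. DUSP10, a phosphatase that switches off JNK and p38, rose from 4.77, 5.08 and 4.76 to 11.6, 10.3 and 10.8 CPM (1.17 ± 0.10) and was at 5.07, 4.91 and 3.92 CPM at 8 h. The EGFR ligand gene HBEGF rose from 5.00, 5.20 and 4.99 to 9.50, 10.0 and 9.15 CPM (0.91 ± 0.10), while LRIG1, which lowers EGFR on the cell surface, fell from 87.5, 90.0 and 85.4 to 53.5, 52.6 and 50.8 CPM (-0.74 ± 0.06). EGFR itself fell (-0.54 ± 0.08, adjusted p = 8.44e-06). TNFAIP3, the A20 brake on NF-kB, rose from 2.51, 2.70 and 2.13 to 5.32, 5.30 and 5.28 CPM (1.11 ± 0.17). Of the 23 NF-kB subunits and feedback genes 10 were higher and 6 lower, and 7 and 4 with the length offset.

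Effectors of the integrated stress response split at 24 h. The pathway slows translation through eIF2 alpha and drives ATF4 targets, among them the death factor CHOP (DDIT3) and the phosphatase subunit GADD34 (PPP1R15A), which ends the response. PPP1R15A rose from 58.8, 55.3 and 59.5 to 93.2, 88.8 and 103 CPM (0.71 ± 0.07, adjusted p = 1.12e-07). DDIT3 rose from 8.89, 8.72 and 8.48 to 14.8, 15.01 and 15.9 CPM (0.81 ± 0.09), though 39.6% of its exon bases lie in another gene. ALDH1L2, the mitochondrial folate enzyme of the same pathway, fell by 0.56 on the log2 scale, from 67.7, 71.7 and 67.7 to 46.6, 47.0 and 47.2 CPM, after 24.4, 27.1 and 26.1 CPM at 8 h. In all 9 of 26 genes were higher and 9 lower than in DMSO (median -0.08), whereas 23 were higher and 2 lower than at 8 h (median 0.46; 24 and 0 with library totals).

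**Figure D2:**
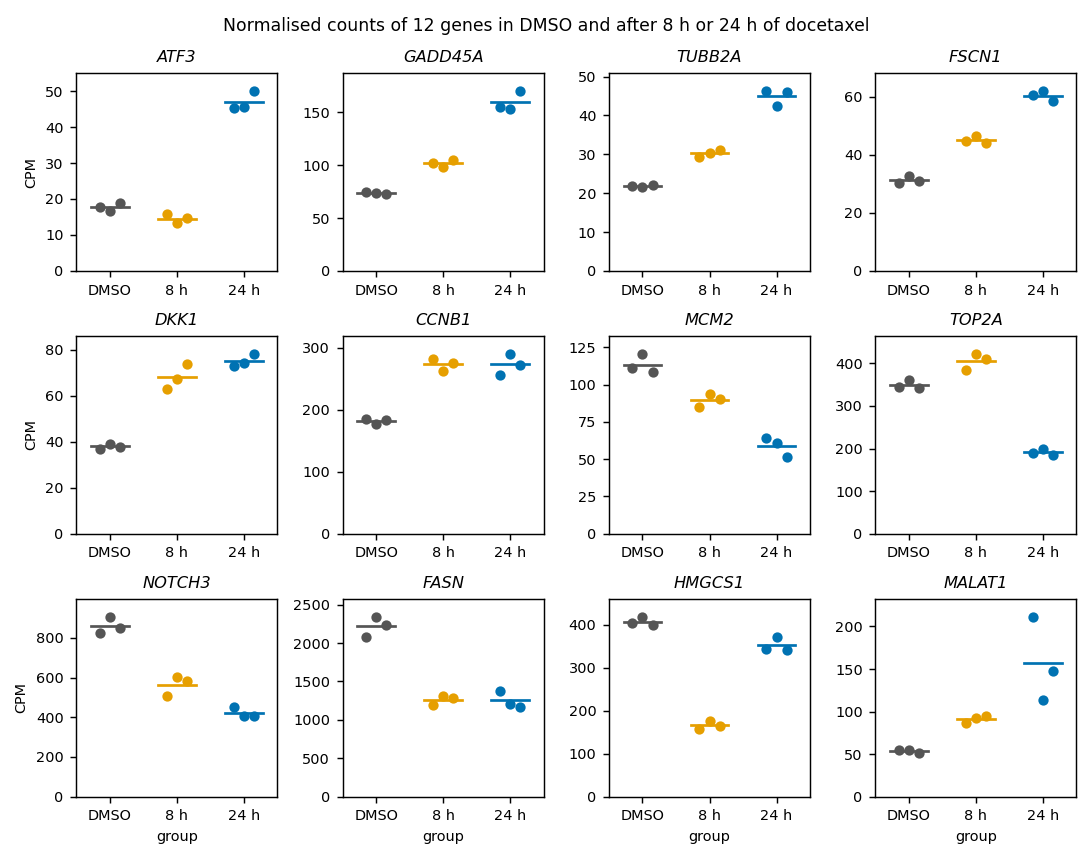
CPM of 12 genes in the DMSO, 8 h and 24 h libraries (each point 1 library, bars the group means, linear axes from 0). ATF3 is highest in the 24 h libraries, CCNB1 is as high at 24 h as at 8 h, TOP2A stands below DMSO at 24 h and above it at 8 h, and HMGCS1 lies between its DMSO and 8 h levels.

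Tubulin genes, whose products are the drug's target, moved with isotype. TUBB2A (chromosome 6, 3153669 to 3157526), a beta-tubulin of class II, had 21.9, 21.6 and 22.1 CPM in DMSO, 29.4, 30.5 and 31.1 CPM at 8 h and 46.2, 42.4 and 46.1 CPM at 24 h (1.04 ± 0.06 against DMSO, adjusted p = 3.20e-11). The 3 groups did not overlap and rose in the order of time. TUBB6, the class V isotype, was at 182, 193 and 179.7 CPM in DMSO, 358, 346 and 367 CPM at 8 h and 304, 332 and 327 CPM at 24 h (0.80 ± 0.05), and it passed against both. TUBB4B was at 285, 294 and 288 CPM in DMSO, 629, 547 and 579 CPM at 8 h and 406, 429 and 426 CPM at 24 h (0.54 ± 0.05). Both genes were highest at 8 h by these CPM. TUBB4B had come part of the way back by 24 h (-0.48 ± 0.05 against 8 h, adjusted p = 1.90e-07). The step of TUBB6 was small (-0.15 ± 0.05 against 8 h, adjusted p = 0.0215 by edgeR's quasi-likelihood test). With library totals the median of all genes in that comparison stood at 0.14, so a return of TUBB6 rests on the scaling. TUBB, the abundant class I isotype, named here after its values were seen, had 2396, 2445 and 2355 CPM in DMSO and 2365, 2322 and 2423 CPM at 24 h (-0.02 ± 0.06, adjusted p = 0.835), after 3789, 3268 and 3534 CPM at 8 h. TUBB3, the neuronal isotype linked to taxane resistance, had 0.645, 0.698 and 1.06 CPM in DMSO and 1.65, 1.08 and 1.46 CPM at 24 h (0.82 ± 0.28, adjusted p = 0.0201), with 35.8% of its exon bases shared. Its call was lost when any of 4 libraries was left out (DMSO A or B, 24 h A or C). Of 31 tubulins and partners 14 were higher and 7 lower (median 0.25), and 14 and 6 with the length offset. Tubulin genes are near-identical in part, so reads may be shared between isotypes. ABCB1, the efflux pump that exports taxanes, did not pass: it had 1.59, 1.93 and 2.07 CPM in DMSO, 0.918, 1.02 and 1.11 CPM at 8 h and 2.38, 2.77 and 2.17 CPM at 24 h (0.39 ± 0.16, adjusted p = 0.0573). It passed in 4 of the 14 alternatives, with log2 fold changes between 0.46 and 0.49.

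The genes of S phase were lower. Of 52 genes of the G1/S transition and DNA replication 36 fell and 5 rose (median -0.27), and 41 fell and 4 rose with the length offset. At 8 h the median of this list against DMSO was 0.26, so the list as a whole stood above DMSO at that time. Single members took different courses. MCM2 (chromosome 3, 127598223 to 127622436), a subunit of the replicative helicase, stepped down from 111, 120.5 and 108 CPM in DMSO through 84.8, 93.6 and 90.2 CPM at 8 h to 64.1, 60.9 and 51.7 CPM at 24 h. The log2 fold change was -0.95 ± 0.07 (adjusted p = 3.39e-10), and 23.6% of its exon bases are shared with another gene. MCM6 of the same ring went from 201, 205 and 197 to 125, 130.2 and 119.6 CPM (-0.69 ± 0.05). POLA1, the catalytic subunit of the polymerase that primes replication, had 51.4, 53.3 and 51.5 CPM in DMSO, 49.0, 54.5 and 51.8 CPM at 8 h and 31.0, 31.5 and 30.3 CPM at 24 h (-0.75 ± 0.06). Its fall therefore came after 8 h, where the log2 fold change was -0.01 (adjusted p = 0.918).

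Several E2F factors fell as well. E2F proteins bind the promoters of S-phase genes and are held in check by RB1, which this line lacks. E2F1 went from 113, 109 and 109 to 77.1, 78.6 and 81.7 CPM (-0.48 ± 0.05), E2F2 from 81.9, 81.7 and 80.8 to 55.2, 51.7 and 49.5 CPM (-0.64 ± 0.05) and the repressor E2F7 from 13.8, 17.6 and 15.7 to 8.54, 8.75 and 7.71 CPM (-0.91 ± 0.11). None of the 3 had passed at 8 h, with log2 fold changes of -0.04, -0.03 and -0.08. CDK4, the kinase that inactivates RB1, fell by 0.59 on the log2 scale, though 43.2% of its exon bases are shared. TCF19, a factor of late G1, had 83.5, 88.5 and 85.5 CPM in DMSO, rose to 104, 105 and 103 CPM at 8 h and fell to 49.6, 52.2 and 49.3 CPM at 24 h (-0.77 ± 0.05). Of 25 regulators of G1, 7 were higher and 13 lower. MYC (-0.13, adjusted p = 0.0602) and CCND1 (-0.12, adjusted p = 0.103) did not pass, although MYC passed in 5 of the 14 alternatives, at -0.19 to -0.12.

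Repair by homologous recombination, which works mainly in S and G2 phase, had 17 of 31 genes lower and 3 higher (median -0.20), and 17 and 4 with the length offset. At 8 h the median of this list against DMSO was 0.20. FANCI, a core protein of the Fanconi pathway, fell from 70.2, 67.1 and 70.7 to 43.6, 44.9 and 38.9 CPM (-0.71 ± 0.06) and BARD1, the partner of BRCA1, from 27.5, 28.3 and 25.2 to 17.3, 17.8 and 16.7 CPM (-0.65 ± 0.07). Of 20 condensins, cohesins and their loaders, the ring complexes that fold and hold chromosomes, 11 fell and none rose (median -0.22). With the length offset 9 were lower and 2 higher. SMC1A of the cohesin ring fell from 177, 198 and 181 to 120.3, 127 and 113 CPM (-0.62 ± 0.06), and NCAPD3 of condensin II from 145, 143 and 144 to 99.8, 106 and 99.5 CPM (-0.50 ± 0.05).

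Mitotic genes, in contrast, did not fall as a block. Of 41 genes of mitotic entry and exit 16 rose and 11 fell (median 0.08), and 17 and 11 with the length offset. CCNB1 (chromosome 5, 69167010 to 69178245), the cyclin that drives entry into mitosis, had 184, 178 and 183 CPM in DMSO, 281, 262 and 275 CPM at 8 h and 257, 289.7 and 272 CPM at 24 h. It was higher than DMSO by 0.59 ± 0.05 (adjusted p = 8.44e-09) and did not differ from 8 h by the test (0.00 ± 0.05). PTTG1, the securin that guards sister chromatids, rose from 121, 119.7 and 124 to 203, 209 and 229 CPM (0.81 ± 0.07), and CDKN3, a phosphatase of cyclin-dependent kinases, from 45.8, 46.6 and 45.3 to 72.6, 73.8 and 75.3 CPM (0.69 ± 0.06). CKS2, a small subunit of those kinases named after its values were seen, rose from 74.3, 68.5 and 75.4 to 115, 132 and 131 CPM (0.79 ± 0.07). None of these 4 differed from 8 h by the test with TMM factors. Of the 41 genes 0 were higher than at 8 h in that fit and 4 with library totals.

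Other mitotic genes had turned below DMSO. TOP2A (chromosome 17, 40388516 to 40417950), the topoisomerase that untangles chromosomes, was at 346, 359.9 and 342 CPM in DMSO, 383, 422 and 410.1 CPM at 8 h and 189, 199 and 186 CPM at 24 h. It was higher at 8 h (0.21) and lower at 24 h (-0.87 ± 0.05, adjusted p = 3.85e-11), and no 2 groups overlapped. INCENP, the scaffold of the Aurora B complex and named after its values were seen, took the same course, with 126, 128 and 119.8 CPM in DMSO, 137, 162 and 154 CPM at 8 h and 82.2, 81.8 and 77.2 CPM at 24 h (-0.63 ± 0.06 at 24 h). MKI67 fell slightly (-0.30 ± 0.08, adjusted p = 0.00292), a call that ended with the length offset (-0.07, adjusted p = 0.242). Its longest transcript is in the group of the longest.

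Among 42 kinetochore and checkpoint genes 17 rose and 5 fell (median 0.10). The falls numbered 3 without DMSO A, B or C and 2 without library C of 24 h. With the length offset 13 were higher and 8 lower, and with length and GC content both taken out, 10 were higher and 9 lower. CENPW, a small histone-fold protein of the centromere, rose from 38.3, 38.1 and 38.6 to 52.8, 57.4 and 62.3 CPM (0.59 ± 0.07), and NUF2 of the microtubule-binding NDC80 complex from 25.2, 24.7 and 26.9 to 32.2, 35.1 and 36.0 CPM (0.43 ± 0.06). CENPI of the inner kinetochore fell from 25.6, 28.2 and 24.8 to 21.5, 18.0 and 18.8 CPM (-0.43 ± 0.08). Of 34 kinesins and cytokinesis genes 5 were higher and 12 lower, and 9 and 9 with the length offset. KIF20A, the motor of the central spindle, rose from 185, 183 and 193 to 243, 252 and 256 CPM (0.42 ± 0.04), and KIF13A, a motor that carries endosomes, fell from 60.1, 64.2 and 66.9 to 45.998, 42.2 and 42.0 CPM (-0.56 ± 0.07).

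Set against 8 h, most genes of the cell-cycle lists were lower at 24 h. Members lower and higher were 46 and 0 of 52 in replication, 25 and 0 of 31 in recombination, 33 and 0 of 41 in mitotic entry and exit, 34 and 0 of 42 at the kinetochore, 22 and 0 of 34 among kinesins and 12 and 2 of 20 among condensins and cohesins. The medians were -0.52, -0.39, -0.44, -0.33, -0.30 and -0.33, against 0.01 for all genes. With library totals the lower members numbered 42, 18, 29, 23, 16 and 11 and the higher 1, 1, 4, 0, 2 and 3. Of the 25 regulators of G1, 12 were lower and 4 higher than at 8 h, and 8 and 8 with library totals. In the plot of cell-cycle genes the mitotic groups straddle 0 against DMSO and lie almost wholly below 0 against 8 h.

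**Figure D3:**
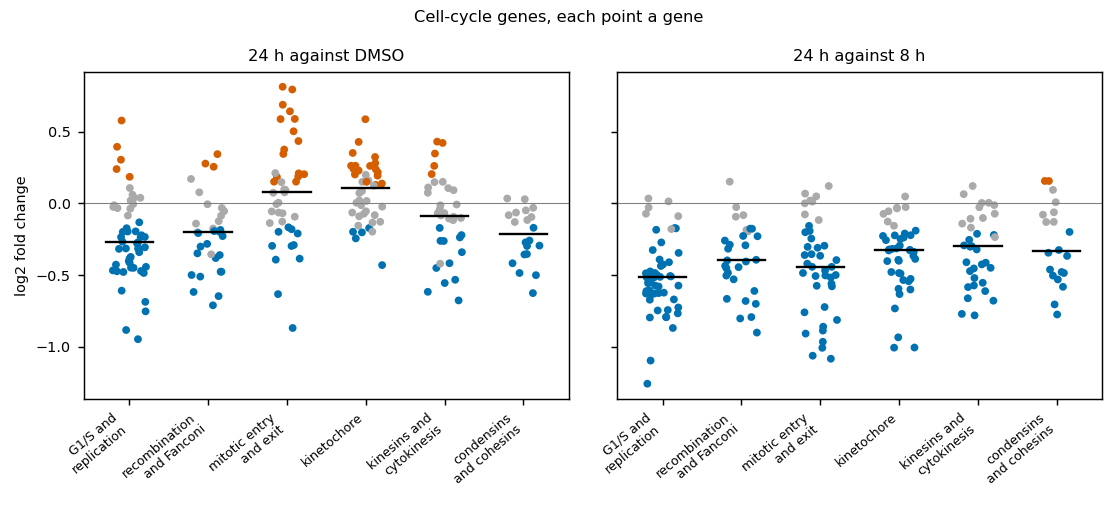
Log2 fold change of each gene of 6 cell-cycle lists, at 24 h against DMSO (left) and against 8 h (right). Each point is 1 gene, orange where called higher, blue where called lower and grey where not called, and the bars are medians. Replication genes lie mostly below 0 in both panels, with medians of -0.27 and -0.52.

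The promoters of these genes hold known cell-cycle elements. Shown are 230 bases around the RefSeq start site (200 before and 30 after, GRCh38.p14), 5′ to 3′ on the gene's strand, for 3 S-phase genes that fell, 3 mitotic genes that rose and 2 mitotic genes that fell, chosen after their values were seen. Capitals mark E2F motifs (TTTCGCGC, TTTGGCGC or TTTCCCGC) in the first 3 and CHR elements (TTTGAA or TTCGAA) and CCAAT boxes in the others, on either strand. The CHR, or cell cycle genes homology region, is where the DREAM and MuvB complexes bind, and CCAAT boxes are bound by NF-Y.
MCM2, chr3:127598211-127598440, plus strand: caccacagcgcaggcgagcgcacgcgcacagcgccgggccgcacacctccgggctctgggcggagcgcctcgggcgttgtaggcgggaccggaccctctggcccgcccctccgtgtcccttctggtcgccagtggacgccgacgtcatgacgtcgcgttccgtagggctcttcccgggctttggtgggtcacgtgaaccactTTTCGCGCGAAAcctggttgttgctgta
MCM6, chr2:135876414-135876643, minus strand: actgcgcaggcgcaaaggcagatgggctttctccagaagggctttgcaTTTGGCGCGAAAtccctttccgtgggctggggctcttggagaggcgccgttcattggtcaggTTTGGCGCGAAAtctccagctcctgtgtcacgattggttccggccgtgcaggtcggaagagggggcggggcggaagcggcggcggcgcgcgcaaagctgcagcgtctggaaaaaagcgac
E2F1, chr20:33686356-33686585, minus strand: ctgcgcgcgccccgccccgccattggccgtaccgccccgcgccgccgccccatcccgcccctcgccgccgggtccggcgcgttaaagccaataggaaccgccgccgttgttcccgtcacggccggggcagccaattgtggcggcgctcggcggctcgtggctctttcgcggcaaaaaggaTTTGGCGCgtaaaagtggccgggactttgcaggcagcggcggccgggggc
CCNB1, chr5:69166950-69167179, plus strand: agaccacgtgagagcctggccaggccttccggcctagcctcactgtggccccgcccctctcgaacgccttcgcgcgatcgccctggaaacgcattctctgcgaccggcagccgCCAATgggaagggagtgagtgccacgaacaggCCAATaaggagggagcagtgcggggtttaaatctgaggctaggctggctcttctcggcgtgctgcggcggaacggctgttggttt
CKS2, chr9:89310995-89311224, plus strand: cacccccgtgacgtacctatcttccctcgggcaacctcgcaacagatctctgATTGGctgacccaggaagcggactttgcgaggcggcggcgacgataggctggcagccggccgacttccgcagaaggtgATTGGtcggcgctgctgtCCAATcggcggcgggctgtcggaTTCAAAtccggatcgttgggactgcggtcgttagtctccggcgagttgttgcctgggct
CDKN3, chr14:54396807-54397036, plus strand: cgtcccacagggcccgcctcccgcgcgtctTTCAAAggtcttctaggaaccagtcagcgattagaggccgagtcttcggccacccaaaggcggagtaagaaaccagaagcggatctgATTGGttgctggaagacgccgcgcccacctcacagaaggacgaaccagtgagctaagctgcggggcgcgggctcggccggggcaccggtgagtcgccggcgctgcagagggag
TOP2A, chr17:40417867-40418096, minus strand: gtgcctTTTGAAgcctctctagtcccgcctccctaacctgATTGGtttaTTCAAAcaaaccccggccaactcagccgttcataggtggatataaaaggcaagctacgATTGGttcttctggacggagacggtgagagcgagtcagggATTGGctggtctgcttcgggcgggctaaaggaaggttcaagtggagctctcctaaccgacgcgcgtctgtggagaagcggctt
INCENP, chr11:62123811-62124040, plus strand: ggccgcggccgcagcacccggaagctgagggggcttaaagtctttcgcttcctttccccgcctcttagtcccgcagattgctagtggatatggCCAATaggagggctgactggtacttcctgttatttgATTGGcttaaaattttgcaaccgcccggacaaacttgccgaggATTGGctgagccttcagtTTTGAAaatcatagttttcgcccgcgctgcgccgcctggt
The run in MCM2 reads as an E2F motif on both strands, with the 2 matches overlapping, and MCM6 carries 2 such overlapping pairs. CCNB1 has 2 CCAAT boxes and no CHR letters in the printed stretch, and the promoters of CKS2 and INCENP each hold 3 CCAAT boxes and 1 CHR.

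Counts over promoters of 300 bases (250 before the start) were taken for the 7774 protein-coding genes tested that have a single RefSeq promoter, out of 13953, a restriction chosen after a first look at these counts. With the first entry of every gene that has one (10969 genes) the E2F and CHR counts below became 21 of 43 and 21 of 32. An E2F motif was present in 18 of 33 replication genes and in 4.61% of all promoters. A CHR was present in 18 of 24 genes of mitotic entry and exit and in 11.1% of all, and a CCAAT box in 21 of 24 and in 37.3%. Within the mitotic lists together, a CHR was found in 16 of 25 genes called higher at 24 h, in 12 of 20 called lower and in 26 of 35 not called. A CCAAT box was found in 19, 14 and 24 of the same genes, and an E2F motif in 3, 0 and 3. Both elements were thus common in mitotic genes of either direction. Among all genes called higher an E2F motif was found in 4.62% and a CHR in 11.8%, and among those called lower in 5.85% and 10.1%. A match is a match of letters and no measure of binding.

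Genes of cell death and of the p53 programme moved in both directions, beside 21.9% higher and 27.1% lower of all protein-coding genes tested. BBC3, which encodes the BH3-only killer PUMA, had 10.9, 10.2 and 10.8 CPM in DMSO, 10.3, 9.02 and 9.06 CPM at 8 h and 18.9, 17.7 and 17.0 CPM at 24 h (0.74 ± 0.08, adjusted p = 9.03e-08). PMAIP1, which encodes NOXA and targets MCL1, rose from 17.4, 16.1 and 16.3 to 24.3, 23.7 and 24.3 CPM (0.54 ± 0.07). Neither passed against DMSO at 8 h, and at 24 h neither overlapped with DMSO. Of the protective genes, BCL2 fell from 10.9, 13.4 and 11.8 to 8.39, 9.21 and 8.63 CPM (-0.46 ± 0.09) and MCL1, the most abundant here, from 329, 327 and 325 to 296, 289.6 and 291 CPM (-0.16 ± 0.04), while BCL2L1 did not pass (0.11 ± 0.06, adjusted p = 0.166). BMF, a BH3-only protein tied to the cytoskeleton, was lower by 0.24 on the log2 scale (adjusted p = 0.0178), but its call ended in 5 alternatives, both length fits among them. Of 17 BH3 and BCL2 family genes 8 were higher and 4 lower. Of 24 death receptors and caspases 4 were higher and 7 lower, and 4 were lower without DMSO B or without library C of 24 h, while 7 were higher in a fit of the 6 libraries alone. TNFRSF10B, the TRAIL receptor DR5, rose from 38.0, 35.5 and 35.7 to 46.6, 43.8 and 44.8 CPM (0.31 ± 0.06), and CASP2 and APAF1 fell by 0.40 and 0.50 on the log2 scale.

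Of 33 p53 targets 12 rose and 8 fell (median 0.08). The falls numbered 5 without DMSO B and 5 with the length offset. CDKN1A, the p21 inhibitor of cyclin-dependent kinases, had 40.1, 38.4 and 43.2 CPM in DMSO, 34.7, 31.7 and 29.5 CPM at 8 h and 52.9, 48.7 and 45.6 CPM at 24 h (0.27 ± 0.07, adjusted p = 0.00173). MDM2 lay close to the threshold (0.13 ± 0.05, adjusted p = 0.0468) and missed it in 9 of the 14 alternatives.

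Cytosolic chaperones and the proteasome were mostly higher, by small steps. Of 32 heat shock genes and chaperones 22 rose and 1 fell (median 0.19), and 24 and 1 with the length offset. HSPE1, the lid of the mitochondrial chaperonin, went from 53.2, 54.0 and 50.6 to 84.8, 85.4 and 89.4 CPM (0.72 ± 0.08), with 23.9% of its exon bases shared, and CHORDC1, a cochaperone of HSP90, from 65.4, 63.7 and 64.3 to 89.8, 93.9 and 93.7 CPM (0.52 ± 0.05). The exception was FKBP5, the glucocorticoid-responsive cochaperone, which fell from 55.2, 54.4 and 56.4 to 39.1, 36.8 and 39.7 CPM (-0.52 ± 0.05). HSPB8, a small heat shock protein that clears misfolded clients, was nearly silent in DMSO with 6 counts over the 3 libraries and had 69 counts at 24 h (adjusted p = 3.79e-07). It stayed under 1 CPM. Of 32 proteasome genes 24 rose and 2 fell (median 0.30), and 22 and 3 with the length offset. POMP, which helps to assemble the core particle, rose from 88.6, 83.8 and 87.1 to 114, 121 and 122 CPM (0.46 ± 0.06). Both lists stood higher at 8 h, with medians against DMSO of 0.32 for chaperones and 0.50 for the proteasome. Against 8 h, 5 chaperone genes were higher and 19 lower at 24 h (8 and 10 with library totals). For the proteasome these were 0 and 22 (0 and 12 with library totals).

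Genes of translation and respiration were higher too. Their transcripts are short, with a median longest transcript of 2008 bases for cytosolic ribosomal protein genes, 1732 for mitochondrial ribosomal genes and 2130 for nuclear respiratory genes, against 3109 for all genes. Of 43 cytosolic ribosomal protein genes 36 rose and none fell (median 0.31), against 31 and 2 with the length offset (median 0.17). Of 32 mitochondrial ribosomal genes 25 rose and none fell, against 17 and 2. Of 35 nuclear genes of the respiratory chain 23 rose and 6 fell, against 18 and 3. All 13 mRNAs of the mitochondrial genome rose (median 0.61), and 10 did with the length offset (median 0.38). At 8 h their median against DMSO was 1.18, and all 13 were lower at 24 h than at 8 h (11 with library totals). MT-CO1, a core subunit of cytochrome oxidase, had 11113 ± 979.8 CPM (SD, n = 3) in DMSO and 25557 ± 1718 CPM at 8 h. At 24 h it had 17485 ± 3502 CPM (0.65 ± 0.10 against DMSO), with library B the lowest of that group. MRPL47 of the mitochondrial ribosome rose from 27.5, 28.3 and 28.8 to 41.2, 41.1 and 44.7 CPM (0.59 ± 0.08). LYAR, a nucleolar protein, rose from 27.0, 28.3 and 27.5 to 46.1, 43.3 and 48.9 CPM (0.74 ± 0.06), one of 18 of 35 ribosome biogenesis genes that rose, while 8 fell. Splicing factors of the SR and hnRNP families rose in 15 of 33 and fell in 3 (20 and 1 with the length offset). CLK1, the kinase that phosphorylates SR proteins, went from 36.5, 31.0 and 34.8 to 50.4, 52.6 and 54.95 CPM (0.63 ± 0.07). Ribosomal protein genes have many processed copies, so single members are uncertain. The medians at 8 h against DMSO were 0.39 for cytosolic and 0.39 for mitochondrial ribosomal genes. They were 0.35 for nuclear respiratory genes, 0.33 for ribosome biogenesis and 0.305 for splicing. Members higher and lower than at 8 h were, in this order, 0 and 7, 0 and 16, 1 and 13, 0 and 24, and 2 and 20. With library totals they were 5 and 0, 4 and 6, 6 and 7, 3 and 12, and 6 and 8.

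**Figure D4:**
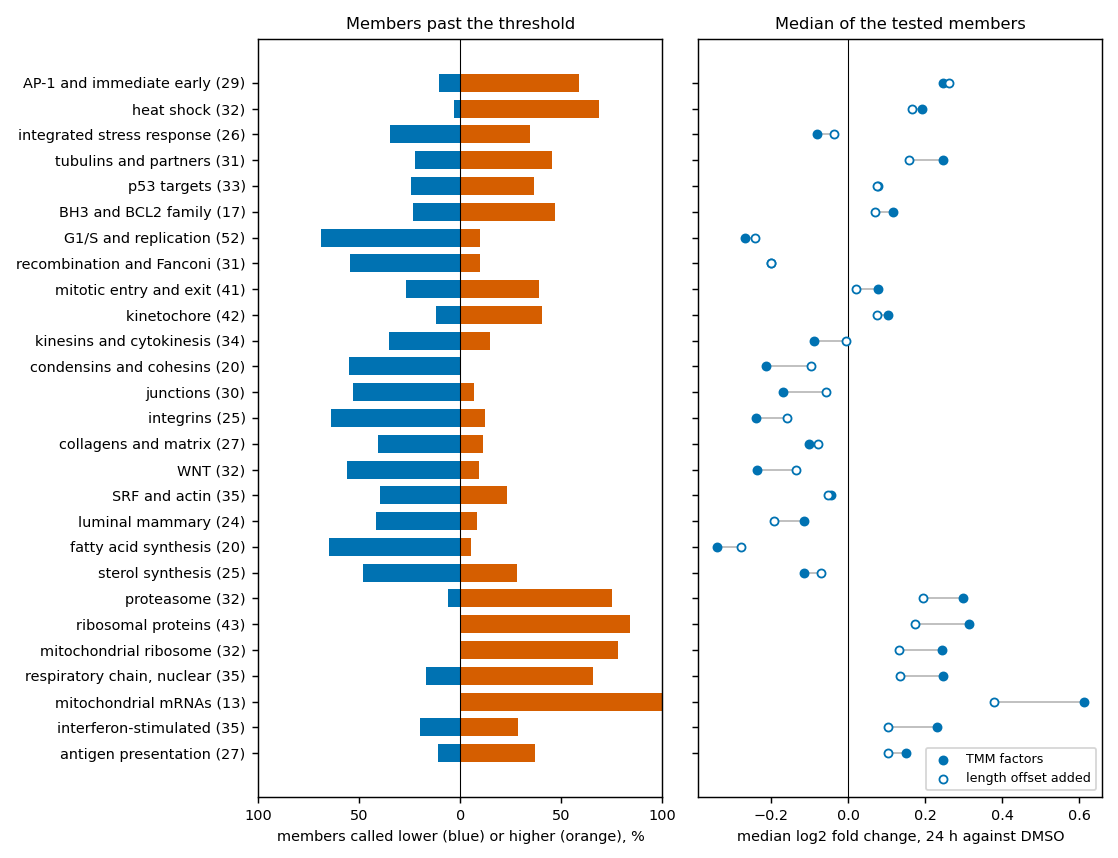
Left, the share of tested members called higher (orange) or lower (blue) at 24 h against DMSO in 27 gene lists, with the number tested in brackets. Right, the median log2 fold change of each list with TMM factors (filled) and with the length offset added (open). Replication, recombination and fatty acid synthesis keep medians of -0.20 or lower in both fits, and proteasome and ribosomal protein genes move toward 0 with the offset but stay above it.

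NOTCH3 (chromosome 19, 15159038 to 15200981), a receptor read by contact with neighbouring cells, had 826, 907 and 851 CPM in DMSO, 506, 602 and 585 CPM at 8 h and 454, 406 and 407 CPM at 24 h. It fell in steps with no overlap between the groups (-1.03 ± 0.06, adjusted p = 6.52e-11), and NOTCH2 fell from 151, 175 and 156 to 113, 97.0 and 94.6 CPM (-0.66 ± 0.09). Of 26 Notch pathway genes 5 were higher and 7 lower. The rises numbered 9 with the length offset and 3 without library C of 24 h. NEURL1B, a ubiquitin ligase for Notch ligands, was among the 15 largest falls, from 32.5, 37.1 and 34.5 to 16.7, 15.01 and 14.5 CPM (-1.17 ± 0.08).

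Of 25 integrins and adhesion-complex genes 16 fell and 3 rose (median -0.24), and 10 and 5 with length and GC content taken out. The rises numbered 1 without DMSO B, DMSO C or library A of 24 h. Of 30 junction genes 16 fell and 2 rose (median -0.17), and 10 and 5 in the same fit. VCL, vinculin, which ties adhesions to actin, fell from 238, 258 and 250.4 to 165, 158 and 152 CPM (-0.65 ± 0.06), and CTNND1, the p120 catenin that holds cadherins at the surface, from 374, 399 and 389 to 271, 267 and 261 CPM (-0.54 ± 0.05). CDH1, E-cadherin, was lower by 0.17 on the log2 scale (adjusted p = 0.0106), a call that both length fits and the fit without DMSO B ended. Among 27 collagens and matrix genes 11 fell and 3 rose, and 8 and 4 with the length offset. HSPG2, the basement-membrane proteoglycan perlecan, fell from 13.7, 16.3 and 15.5 to 7.58, 7.06 and 7.11 CPM (-1.06 ± 0.10), and TNC, tenascin C, from 281, 305 and 290.4 to 182, 180.4 and 199.6 CPM (-0.64 ± 0.06). Neither differed from 8 h by the test.

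The actin crosslinker FLNA, in contrast, was at 2848, 3282 and 3136 CPM at 8 h, close to the 2856, 3149.6 and 2971 CPM of DMSO, and fell to 2003, 1710 and 1701 CPM by 24 h (-0.73 ± 0.07, adjusted p = 1.81e-08). The nonmuscle myosin MYH14 went from 222, 235 and 227 to 131, 126 and 117 CPM (-0.87 ± 0.05). Of 35 SRF and actin genes 8 rose and 14 fell. FSCN1, fascin, which bundles actin in protrusions, had the second smallest p of the rises described here, with 30.2, 32.6 and 30.9 CPM in DMSO, 44.7, 46.4 and 44.2 CPM at 8 h and 60.8, 61.9 and 58.4 CPM at 24 h (0.95 ± 0.05, adjusted p = 1.15e-11). Of 18 markers of epithelial-mesenchymal transition 5 rose and 3 fell (median 0.33), and 5 and 4 with either length fit. TNC, given above with the matrix genes, was one of the falls. SNAI1, a repressor of E-cadherin, rose from 1.36, 2.32 and 1.54 to 5.20, 4.68 and 5.23 CPM (1.56 ± 0.19) and VIM, vimentin, from 43.5, 45.4 and 43.4 to 66.0, 65.2 and 70.6 CPM (0.61 ± 0.07; 24.4% of its exon bases shared).

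In the WNT pathway 18 of 32 genes fell and 3 rose (median -0.24), and 16 and 5 with the length offset. The rises included DKK1 (chromosome 10, 52314296 to 52318042), a secreted antagonist of the pathway, which went from 36.9, 39.1 and 37.8 CPM in DMSO through 63.1, 67.2 and 73.9 CPM at 8 h to 72.9, 74.3 and 78.1 CPM (0.99 ± 0.06, adjusted p = 2.14e-11). SFRP1, another secreted antagonist, fell from 263, 274 and 267 to 201, 209.7 and 197 CPM (-0.40 ± 0.05). IGFBP5, a binding protein of insulin-like growth factors, was lower at 24 h (84.3, 84.0 and 90.7 CPM) than in DMSO (158, 173 and 155 CPM), and lower still at 8 h (65.8, 71.1 and 68.8 CPM), so it had come part of the way back (-0.91 ± 0.05 against DMSO). ADM, adrenomedullin, a vasodilator peptide induced by hypoxia, rose from 21.9, 24.6 and 21.5 to 42.4, 43.3 and 49.3 CPM (0.996 ± 0.07). Of 24 hypoxia genes 6 rose and 1 fell, and 10 rose with the length offset. The single fall was lost without DMSO B, DMSO C or library A of 24 h, and 2 fell without library C.

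KRT17, a keratin of basal and wounded epithelium, had 567, 564 and 565 CPM in DMSO, 1709.6, 1550 and 1639.8 CPM at 8 h and 910, 894 and 991 CPM at 24 h (0.72 ± 0.06 against DMSO). KRT5, another basal keratin, had 1606, 1661 and 1603 CPM in DMSO, 2903, 2783 and 2863 CPM at 8 h and 1664, 1560 and 1647 CPM at 24 h (0.00 ± 0.05), so that the 24 h libraries overlapped DMSO. TP63, the master factor of basal epithelium, fell further with time, from 9.24, 9.77 and 9.57 CPM in DMSO through 6.90, 6.95 and 7.70 CPM at 8 h to 4.93, 5.15 and 5.23 CPM at 24 h (-0.90 ± 0.10, adjusted p = 4.73e-07, and -0.49 ± 0.11 against 8 h). Of 24 luminal mammary genes 10 fell and 2 rose (median -0.12), and 14 and 3 with the length offset. EHF, an ETS factor of luminal cells, fell from 139, 148 and 141 to 80.2, 82.7 and 65.2 CPM (-0.91 ± 0.10). CYP1A1, an aryl hydrocarbon receptor target, was at 32.2, 32.9 and 37.0 CPM at 8 h and had nearly returned by 24 h, with 1.45, 1.21 and 1.09 CPM in DMSO and 2.25, 2.40 and 2.17 CPM at 24 h (0.84 ± 0.14 against DMSO, -3.90 ± 0.10 against 8 h).

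Of 20 genes of fatty acid synthesis 13 were still lower than in DMSO and 1 higher (median -0.34), and 12 and 1 with the length offset. Against 8 h 10 were higher and 5 lower (12 and 2 with library totals). FASN (chromosome 17, 82078333 to 82098332), the fatty acid synthase, had 2079.9, 2341 and 2229.7 CPM in DMSO, 1189, 1310.2 and 1281 CPM at 8 h and 1380.4, 1209 and 1166 CPM at 24 h (-0.82 ± 0.06, adjusted p = 1.68e-09), and did not differ from 8 h by the test (-0.01 ± 0.06). FADS2, a desaturase of polyunsaturated fatty acids, followed it, with 42.4, 45.9 and 44.9 CPM in DMSO, 26.2, 27.4 and 26.3 CPM at 8 h and 28.4, 27.9 and 27.8 CPM at 24 h (-0.66 ± 0.06). SCD, the stearoyl desaturase, had recovered in part, from 637, 689 and 661 CPM at 8 h to 1296, 1314 and 1293 CPM, against 1759, 1845 and 1816 CPM in DMSO (-0.47 ± 0.05 against DMSO, 0.97 ± 0.05 against 8 h).

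Of 25 genes of sterol synthesis and uptake 12 were lower and 7 higher than in DMSO (median -0.12), and 22 were higher and none lower than at 8 h (median 0.60; 24 and 0 with library totals). HMGCS1, which makes the precursor of mevalonate, had 403, 418 and 399 CPM in DMSO, 157, 175 and 164 CPM at 8 h and 344, 372 and 342 CPM at 24 h (-0.21 ± 0.05 against DMSO, 1.09 ± 0.05 against 8 h). SREBF2, the factor that switches this branch on, stayed at its 8 h level, with 404, 421 and 402 CPM in DMSO, 268, 277 and 279 CPM at 8 h and 285, 285 and 276 CPM at 24 h (-0.54 ± 0.04). APOE, a carrier of cholesterol, rose from 2.97, 2.47 and 2.78 to 5.59, 5.08 and 5.43 CPM (0.96 ± 0.13).

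Genes of the secretory pathway went both ways, as protein-coding genes at large did. Of 34 ER folding genes 11 rose and 10 fell. HSPA5, the BiP chaperone, rose from 315, 328 and 321 to 403, 415 and 418 CPM (0.36 ± 0.05), and TXNDC5, a disulfide isomerase, fell from 19.2, 22.8 and 20.7 to 10.2, 11.2 and 6.70 CPM (-1.18 ± 0.14), with 60.6% of its exon bases shared with another gene. SEC24C, a cargo adaptor of COPII vesicles, fell from 75.3, 78.9 and 74.4 to 42.1, 36.9 and 29.1 CPM (-1.09 ± 0.10; 42.9% shared). Of 36 lysosome and autophagy genes 10 rose and 10 fell. GABARAPL1, which coats autophagosomes, rose from 28.4, 27.6 and 28.8 to 42.9, 41.0 and 41.0 CPM (0.56 ± 0.05), and SQSTM1, the autophagy receptor p62, did not pass (0.04 ± 0.05, adjusted p = 0.538).

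Interferon and antigen genes had opposite members. Of 35 interferon-stimulated genes 10 rose and 7 fell (median 0.23), and 6 and 8 with the length offset. IFIT1, a sensor of foreign RNA caps, rose from 4.95, 3.62 and 4.96 to 7.31, 7.73 and 9.95 CPM (0.89 ± 0.14) after 2.93, 2.94 and 3.60 CPM at 8 h. Of 27 antigen presentation genes 10 rose and 3 fell, and 6 rose without library C of 24 h. B2M, the light chain of class I molecules, rose from 361, 368 and 354 to 447, 489 and 487 CPM (0.39 ± 0.06), and ERAP1, which trims their peptides, fell from 62.3, 67.6 and 63.7 to 44.6, 45.2 and 40.2 CPM (-0.57 ± 0.07). Clock genes rose in 7 of 19 and fell in 3. The repressor NR1D1 went from 12.4, 13.8 and 11.2 to 21.0, 20.1 and 22.1 CPM (0.76 ± 0.08) and PER1 from 12.2, 12.4 and 11.3 to 22.3, 18.2 and 19.6 CPM (0.75 ± 0.08), and neither passed against DMSO at 8 h.

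Counts of chromatin modifiers moved with the length offset. Of 35 genes 15 fell and 1 rose (median -0.17), and with the length offset 7 fell and 7 rose. DNMT1, the maintenance DNA methyltransferase, fell in both fits, from 1183, 1203 and 1202 to 877, 868 and 851 CPM (-0.47 ± 0.05; -0.33 with the offset), and was at 1195, 1270 and 1226 CPM at 8 h. EZH2, the methyltransferase of Polycomb, fell by 0.21 on the log2 scale (adjusted p = 0.00129). AKT1 fell by 0.29, a call that ended with the offset (-0.07, adjusted p = 0.271). Of 23 ABC transporters 10 fell and 1 rose, and 6 and 5 with the offset. Of 34 genes of TGF-beta and BMP signalling 9 rose and 10 fell. Those falls numbered 3 with the offset, 6, 4 and 5 without DMSO A, B and C, and 5 without library C of 24 h.

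Transcripts that code for no protein held one of the largest rises. MALAT1 (chromosome 11, 65497688 to 65506516), an abundant nuclear RNA of speckles, had 54.7, 54.3 and 51.3 CPM in DMSO, 86.0, 92.7 and 94.2 CPM at 8 h and 211, 113 and 147 CPM at 24 h. Every 24 h library was above the others, but they spread widely (1.56 ± 0.14, adjusted p = 1.09e-08). The paraspeckle RNA NEAT1, named after its values were seen, rose from 188, 153 and 168 to 311, 248 and 253 CPM (0.67 ± 0.11). Both are long transcripts, against the trend for length. Counts at the mitochondrial tRNA gene MT-TL1 rose from 3.89, 3.997 and 4.34 to 9.62, 5.45 and 8.31 CPM (0.94 ± 0.15), with library B lowest as for the mitochondrial mRNAs. The gene spans 75 bases and the libraries were of poly(A) RNA. Whether these reads came from the tRNA itself was not tested. COLCA1, an antisense transcript, fell from 5.23, 4.98 and 5.61 to 2.98, 2.46 and 2.02 CPM (-1.10 ± 0.15). Of 954 lincRNA genes tested 12.9% were higher and 7.34% lower, and of 1062 antisense genes 10.2% and 6.03%. Reads of an antisense gene and of its partner on the other strand cannot be told apart where the library did not keep the strand.

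Several strongly changed genes stand outside these groups. VGF, a secreted precursor of neuropeptides, rose from 8.43, 7.45 and 8.13 to 21.6, 20.7 and 22.6 CPM (1.43 ± 0.09) and TFPI2, an inhibitor of serine proteases in the matrix, from 19.8, 20.8 and 19.9 to 36.2, 37.4 and 43.1 CPM (0.95 ± 0.07). SMN1 rose by 1.02 ± 0.27, but it shares nearly all of its sequence with SMN2, so the value is uncertain. Of the falls, NPTXR, the neuronal pentraxin receptor, went from 18.6, 21.0 and 20.9 to 10.5, 7.92 and 8.91 CPM (-1.14 ± 0.09), and SLC12A3, a sodium chloride cotransporter, from 10.3, 11.3 and 9.96 to 4.69, 4.81 and 4.91 CPM (-1.13 ± 0.12) after 2.99, 3.65 and 2.32 CPM at 8 h. FOXRED2, a flavoprotein of ER-associated degradation, fell from 247, 269 and 257 to 152, 145 and 140 CPM (-0.82 ± 0.05, adjusted p = 6.52e-11), mostly after 8 h (-0.64 ± 0.05 against 8 h). PPP1R3E, a glycogen-targeting subunit of protein phosphatase, fell from 7.78, 7.45 and 6.53 to 3.04, 3.36 and 3.77 CPM (-1.09 ± 0.12).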

How the data were processed

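Poly(A) RNA of MDA-MB-468 cells was sequenced in 12 libraries, 3 in each of 4 groups given by the labels. The deposited files hold raw read counts per gene symbol, as deposited by the authors. The submitters' processing notes name fastp, HISAT2 2.0.5, DESeq2 and hg38, with no roles. For the counting program, its annotation and the use of strand, the answer is not given in the sources used here, and the library protocol names both a stranded and an unstranded way.

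Counts were tested with edgeR 4.0.16 in R 4.3.3: TMM factors (0.917 to 1.047), genes kept at a minimum count of 10 by filterByExpr, 1 mean per group over all 12 libraries (8 residual degrees of freedom), the quasi-likelihood F test (two-sided) and Benjamini-Hochberg adjustment over 17780 genes. Standard errors are the fold change divided by the root of F. The script was checked on simulated counts. Symbols were matched to GENCODE 29 on GRCh38 (58708 of 58735), whose coordinates are given, and promoters came from RefSeq on GRCh38.p14. A gene's shared exon bases overlap exons of another gene in that annotation. Replicate libraries differed by more than sampling noise in every pair (chi-square per degree of freedom 3.24 to 16.2).

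Named genes were the 15 largest and 10 smallest-p rises and falls among protein-coding genes that reached 5 CPM with no overlap, outside the histone clusters and NF-kB cytokines, 5 non-coding rises and falls, up to 4 members of each gene list and genes fixed by name, and the text gives a selection of these 292. Some genes named by the rule are not reported here. The comparison, gene lists and rule were chosen with earlier results of these data known. The alternatives were library totals, median-ratio size factors, DESeq2 1.42.0, no filter on low counts, the letter as a block, only the 6 libraries compared, leaving out each library, and, added after the data were seen, an offset for transcript length alone or with GC content (lowess, span 0.3).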

Additional observations from a re-analysis of the deposited data

Results flagged for a closer look

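Some named genes were called in opposite directions at 8 h and at 24 h against DMSO. Their difference between 24 h and 8 h follows largely from that choice. That it passed edgeR's quasi-likelihood test is therefore no added support. All values here are log2 differences of 24 h minus 8 h, and both comparisons with DMSO share its 3 libraries. At 8 h 22.5% of genes were higher and 24.8% lower than DMSO.

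Some stress and signalling genes were below DMSO at 8 h and above it at 24 h. Others, such as GADD45A and FOSL1, were above it at both times. Of those that turned, NR4A2 differed by 1.73, ATF3 by 1.69, HBEGF by 1.32 and JUN by 0.88. The interferon gene IFIT1 differed by 1.42, the p21 gene CDKN1A by 0.61, the death receptor gene TNFRSF10B by 0.47, the YAP target ANKRD1 by 1.99 and PNRC1, a nuclear receptor coactivator, by 0.78.

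Some genes of proliferation were above DMSO at 8 h and below it at 24 h. Others took other courses: MCM2 and MCM6 were below DMSO at both times, and CCNB1, PTTG1 and CDKN3 above it at both. Of those that turned, TOP2A differed by -1.08, TCF19 by -1.05, INCENP by -0.91, MKI67 by -0.89, CENPI by -0.63 and EZH2 by -0.37. AKT1 went with them at -0.48. The calls of MKI67 and AKT1 against DMSO at 24 h ended with the length offset.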

How the results depend on the processing

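The counts of genes against DMSO stayed within 1.5 times under each of the 14 alternatives: 3225 to 3917 higher and 3571 to 4328 lower with all libraries in, and 2826 to 3394 higher and 3306 to 3841 lower when 1 of the 6 libraries was left out. Against 8 h, leaving out a library gave 2345 to 2686 higher and 2829 to 3119 lower, and library totals gave 5392 and 1655, with the median of all genes at 0.14. Over the 3 same-lettered pairs of DMSO and 24 h libraries the deviations correlated at -0.147 (A), 0.124 (B) and 0.134 (C), and some same-lettered pairs of other groups correlated more (up to 0.539), so that pairing by letter was neither given by the labels nor shown by every pair here. With the letter as a replicate block, 3630 genes were higher and 4137 lower. At 24 h against DMSO, 120 of the 131 genes with values in the text kept their side of the threshold in all 14 alternatives. The other 11 did not (26 calls lost and 12 gained over 1834 gene and setting pairs). These counts do not cover the tests of single genes against 8 h. No called gene was reversed in direction. RB1 lost its call without DMSO A, and SMAD4 passed with either length fit. The rises among basal keratins and hemidesmosome genes (7 of 23) numbered 4 with library totals or without DMSO A or B, and 3 without library C of 24 h. Genes under about 1 CPM, such as SMAD4 and HSPB8, rest on few reads.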

Other observations

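Some other gene groups held more calls against 8 h than against DMSO. Of 26 FOXO targets, genes switched on when AKT signalling is low, 5 were higher and 7 lower than DMSO, and 18 were higher and 1 lower than at 8 h (21 and 0 with library totals). PNRC1 had 53.6, 51.8 and 51.1 CPM in DMSO, 46.1, 42.3 and 43.2 CPM at 8 h and 71.4, 78.0 and 77.1 CPM at 24 h (0.53 ± 0.05 against DMSO). ERBB3, a receptor that feeds that pathway, had 66.9, 69.1 and 65.2 CPM in DMSO, 41.4, 44.3 and 42.3 CPM at 8 h and 47.2, 50.6 and 50.2 CPM at 24 h (-0.44 ± 0.05). Of 26 antioxidant genes of the NRF2 programme 8 were higher and 4 lower than DMSO, and 2 higher and 15 lower than at 8 h (5 and 10 with library totals). Against DMSO the length offset gave 5 higher and 6 lower, and the falls numbered 8 with library totals and 2 without DMSO A or C. NQO1, a quinone reductase, had 113, 111 and 113 CPM in DMSO, 186, 160.4 and 174 CPM at 8 h and 125, 143 and 136 CPM at 24 h.

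Of 24 YAP targets 7 were higher and 10 lower than DMSO. ANKRD1, a stretch-responsive repeat protein, dropped to 2.31, 2.47 and 2.57 CPM at 8 h from 4.84, 5.61 and 4.93 CPM and stood at 8.69, 9.49 and 10.8 CPM at 24 h, so that no groups overlapped. MYOF, a membrane repair protein, fell only after 8 h, with 497, 537 and 516 CPM in DMSO, 477, 564 and 529 CPM at 8 h and 372, 349 and 336 CPM at 24 h (-0.55 ± 0.06 against DMSO). Of 10 replacement histone genes, whose mRNAs are polyadenylated, 6 rose and 1 fell, and 7 and 3 with the length offset. H1F0, the linker histone of resting cells, went from 359, 344 and 362 CPM through 344, 329 and 342 CPM at 8 h to 470.2, 496 and 493 CPM at 24 h (0.46 ± 0.05), and H3F3B, which encodes H3.3, from 888, 859 and 904 to 1100.1, 1215 and 1208 CPM (0.41 ± 0.05). Of 27 genes of glycolysis and the pentose phosphate pathway 7 were lower and 5 higher, 10 and 5 with the length offset, and 6 and 8 with length and GC content taken out. PFKL, the liver-type phosphofructokinase, was at 319, 333 and 328 CPM in DMSO and 253, 246 and 247 CPM at 24 h (-0.39 ± 0.05).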
